A study of Bos taurus with 43 samples.

Results

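The comparison concerns the 25 of 43 cows that were pregnant after embryo transfer, and sets the 14 pregnant cows of the second round of estrus synchronization (block 2) against the 11 of the first (block 1). The pregnancy and block labels alone define these cows, but the comparison was chosen with earlier results of these data known. All cows were multiparous Angus x Brahman beef cows. Each was synchronized with an intravaginal progesterone device, a GnRH analogue and a prostaglandin F2alpha analogue, and only cows seen in estrus were kept. A cytology brush was passed into the uterine lumen on day 4, counted from the last GnRH dose, and each cow gave 1 poly-A RNA library. A single in vitro-produced embryo was transferred on day 7 and pregnancy was checked around day 30, so every library predates the embryo. The remaining 18 cows, 10 of block 1 and 8 of block 2, received an embryo in the same way and were not pregnant. The labels describe block only as the round of synchronization, so calendar time, handling and any laboratory batch that followed the rounds cannot be told apart from it. Each block is a single round, shared by pregnant and nonpregnant cows, so tests between blocks measure the spread between cows and not between rounds.

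A uterine brush collects mainly the luminal epithelium, the cell layer that lines the cavity and first meets the embryo. In the days after ovulation the corpus luteum forms and progesterone begins to rise. Progesterone acts through its nuclear receptor and changes the transport and secretory genes of this epithelium, whose products feed the embryo before attachment. Rounds of synchronization group cows by when they were treated and sampled, and are routinely entered as a block in cattle experiments.

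The 25 libraries held 12651316 to 23572549 counts (median 15324201) over 27570 Ensembl gene identifiers, with 16705 to 18842 genes detected. Pregnant cows of block 2 had on average 2064283 more counts than those of block 1 (two-sided permutation p = 0.0636, adjusted p = 0.254 over 4 cow-level measures). They had 295 more detected genes (permutation p = 0.145, adjusted p = 0.289). The 10 most abundant genes took a mean of 5.83% of counts in block 1 and 6.33% in block 2 (permutation p = 0.531, adjusted p = 0.708). Their medians were 5.63% and 5.52%, which were not tested. Progesterone in blood had a geometric mean of 0.795 in block 1 and 0.817 in block 2, in the unit of the labels, which is not stated, with SDs of 0.75 (n = 11) and 0.49 (n = 14) on the log2 scale. The difference on that scale was 0.04 ± 0.26 (SE; permutation p = 0.876, adjusted p = 0.876). Block 1 cows ran from 0.34 to 1.81 and block 2 cows from 0.47 to 1.28, and 2 cows of block 1 lay above every cow of block 2.

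Among pregnant cows, 248 of 15206 tested genes differed between the rounds, and most of them were higher in block 2. Of them 217 were higher and 31 lower in the second round (quasi-likelihood test of edgeR, Benjamini-Hochberg adjusted p under 0.05), which is 1.63% of the genes tested in all, 1.43% higher and 0.204% lower. Over all tested genes the median log2 fold change was -0.01 and 48.7% lay above 0, as TMM scaling centres these values, so every difference is relative to the bulk of the genes. Before adjustment, 2683 genes (17.6%) had a p under 0.05, of which 1465 were higher (9.63%) and 1218 lower (8.01%). A luminal brush is a bulk sample, so fewer cells of a type and less RNA per cell cannot be told apart in any of these values. The files give identifiers without symbols, and 0 of the identifiers matched the gene table used here. Genes are therefore named by identifier only, at most 2 per direction, with no position or function. The 31 lists of cell type markers and pathways, the marker check of the luminal epithelium included, could not be applied.

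The differences were mostly moderate in size. Genes higher in block 2 had a median log2 fold change of 0.68, or 1.60-fold, and 57 of the 217 exceeded 2-fold while 89 stayed under 1.5-fold. Genes lower in block 2 had a median of -0.53, or 1.44-fold, with 6 of 31 over 2-fold and 17 under 1.5-fold. In the whole table the median absolute log2 fold change was 0.19, and 348 genes exceeded 2-fold. Of the 217 higher genes, 210 had at least 1 count in every pregnant cow, and these ranged from 0.27 to 4.39. Of the 31 lower genes, 30 had a count in every pregnant cow and ranged from -1.68 to -0.27. The 31st lower gene was at 0 in at least 1 cow, and its fitted value of -8.63 depends on the prior count. At the threshold itself, the last gene called had an adjusted p of 0.04998 and an absolute log2 fold change of 0.44, and the first not called had 0.0503 and 1.31 (edgeR).

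**Figure D1:**
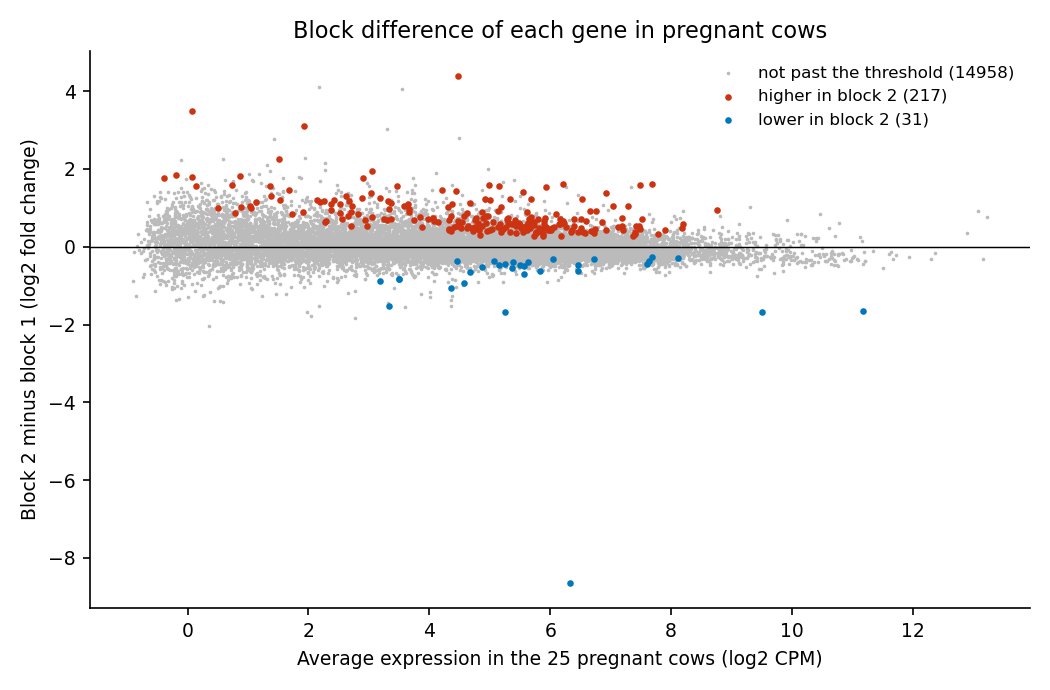
Log2 fold change of block 2 against block 1 in the 25 pregnant cows (vertical) against average expression in log2 CPM (horizontal), 1 point per tested gene. The 217 genes higher in block 2 are in red, the 31 lower in blue and the others in grey. Red points outnumber blue in each of 4 abundance bins, while the cloud of all genes is centred near 0.

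The called genes came from the whole range of abundance. Genes higher in block 2 had a median of 33.2 CPM (counts scaled to library size, with TMM factors), and genes lower in block 2 a median of 45.1 CPM, against 23.8 CPM over all tested genes. Only 2 of the 248 averaged under 1 CPM, and 35 averaged over 100 CPM. With the tested genes split by abundance into 4 bins of equal size, the lowest bin (up to 6.57 CPM) had 37 higher and 0 lower genes, with a median absolute log2 fold change of 1.16. The highest bin, from 61.1 CPM, had 55 higher and 11 lower genes, with a median of 0.51. The share called ran from 0.973% in the lowest bin to 2.47% in the third. Precision rose with abundance, since the median half-width of the 95% interval of the log2 fold change fell from 0.68 in the lowest bin to 0.25 in the highest.

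The gene of smallest p was an abundant transcript that was higher in block 2. ENSBTAG00000011689 had a lowest, median and highest value of 182, 279 and 410 CPM in the 11 pregnant cows of block 1. In the 14 pregnant cows of block 2 these were 329, 543 and 881 CPM. Of the 14 cows of block 2, 12 lay above every cow of block 1, and the groups overlapped in the other 2. The fold was 1.94 (log2 0.96 ± 0.15 SE, 95% interval 0.66 to 1.25; edgeR adjusted p = 0.00324).

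ENSBTAG00000000658, a less abundant transcript, differed by a larger fold. It ran from 1.98 through a median of 4.62 to 9.39 CPM in block 1. In block 2 it ran from 6.91 through 16.1 to 26.0 CPM. Again 12 of 14 cows of block 2 exceeded every cow of block 1. The fold was 2.95 (log2 1.56 ± 0.24 SE, 95% interval 1.07 to 2.06; edgeR adjusted p = 0.00324), on raw counts of 28 to 142 per cow in block 1 and 115 to 439 in block 2.

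ENSBTAG00000043250 was the gene of smallest p among those lower in block 2. It ran from 25.3 through a median of 54.1 to 161 CPM in block 1. In block 2 it ran from 6.41 through 19.5 to 34.0 CPM. In block 1, 10 of 11 cows lay above every cow of block 2, and 1 cow fell within the range of block 2. The level in block 1 was 3.18-fold higher (log2 -1.67 ± 0.27 SE for block 2 against block 1, 95% interval -2.22 to -1.12; edgeR adjusted p = 0.00324).

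ENSBTAG00000012970 showed a smaller difference with little spread between cows. It ran from 81.4 through a median of 111 to 143 CPM in block 1, and from 50.0 through 70.1 to 95.3 CPM in block 2. The groups overlapped, with 11 of 14 cows of block 2 below every cow of block 1. The log2 fold change was -0.62 ± 0.10 (SE, 95% interval -0.84 to -0.41; edgeR adjusted p = 0.00324). These 4 calls held in each of 12 other settings and without any 1 pregnant cow (highest edgeR adjusted p = 0.0245 and 0.00863). The 4 genes were picked for their small p on these same cows, so this carries no further evidence.

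**Figure D2:**
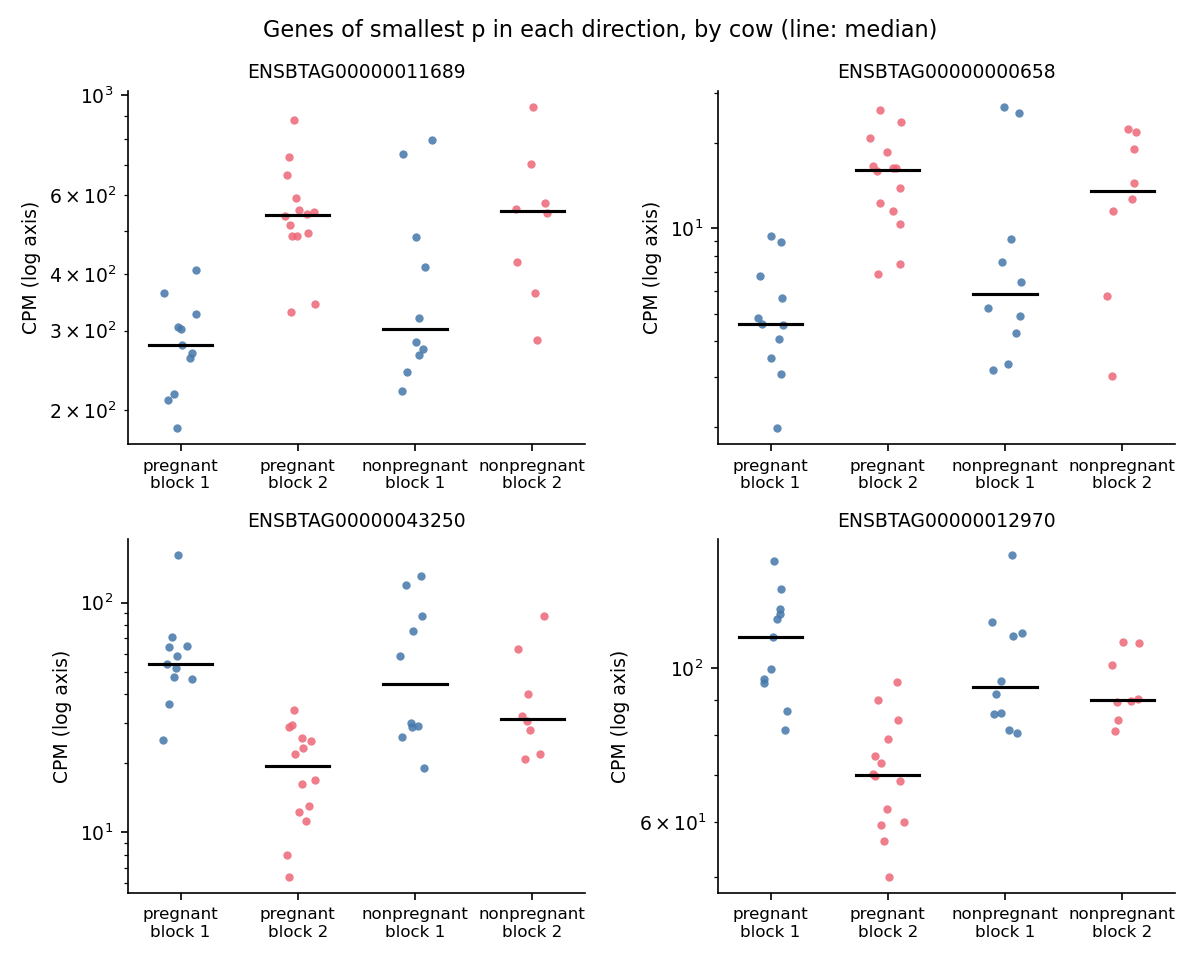
CPM of the 4 genes (log axes) in each cow, by outcome and block, with a black line at the group median. Block 1 is blue and block 2 red. The upper pair of genes is higher and the lower pair lower in block 2 of the pregnant cows, with medians of 279 and 543 CPM for ENSBTAG00000011689, and the nonpregnant cows show a wider overlap between blocks.

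Most cows took part in the difference. For the 217 higher genes, a median of 14 of the 14 cows of block 2 lay above the median of block 1, and for 109 genes all 14 did. For all tested genes the median was 7 cows, and all 14 lay above for 1.76% of genes. For 17 of the 31 lower genes all 14 cows of block 2 lay below the median of block 1, against 0.973% of all genes. These counts restate the contrast that chose the genes and carry no further evidence. For 0 genes, called or not (0% of those tested), were the groups free of overlap. The highest number of block 2 cows above every cow of block 1 was 13.

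The mean log2 CPM of the 217 genes, set relative to the mean of the 25 pregnant cows, ran from -0.94 to -0.07 in block 1 and from -0.10 to 0.87 in block 2. The 2 lowest cows of block 2 were at -0.10 and -0.06, next to the highest cow of block 1. The 31 lower genes ran from 0.04 to 0.79 in block 1 and from -0.60 to -0.06 in block 2, a separation that the choice of the genes fixes. As a share of the library, the 217 genes took a median of 0.792% of counts in block 1 and 1.29% in block 2. The 31 genes took 0.669% and 0.311%, or 0.326% and 0.205% without the most abundant of them.

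The 18 nonpregnant cows share no library with the pregnant ones and were not in the test that called the 248 genes. They did enter the low-count filter and the TMM factors. With both taken from the pregnant cows alone, 245 of the 248 were called. In them, 199 of the 217 genes (91.7%) were again on the higher side in block 2, where 47.2% of all tested genes were. Of the 31 lower genes, 23 (74.2%) were again on the lower side, where 52.8% of all genes were. Together 222 of 248 (89.5%) had the same sign, against 61.2% of all genes. Genes are not independent of each other, so these shares are descriptions. The count of 222 became 223 with DESeq2 and 228 with limma voom, and ran from 203 (without block 2 cow 1) to 235 (without block 1 cow 5) when 1 nonpregnant cow was left out.

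The differences were smaller in the nonpregnant cows. The 217 genes had a median log2 fold change of 0.22 there, with quartiles of 0.10 and 0.35, beside 0.68 in the pregnant cows and -0.01 for all genes. The 31 genes had a median of -0.07 beside -0.53. Genes picked for a low p in one set of cows tend to have overstated folds in that set, so the pregnant values are not a fair measure of the gap. The pregnant estimate lay within the 95% interval of the nonpregnant one for 132 of the 217 genes and 8 of the 31, and for 13920 of the 15206 genes tested. Across the 15206 genes, which are not independent replicates, the block differences of pregnant and nonpregnant cows had a Pearson correlation of 0.22.

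**Figure D3:**
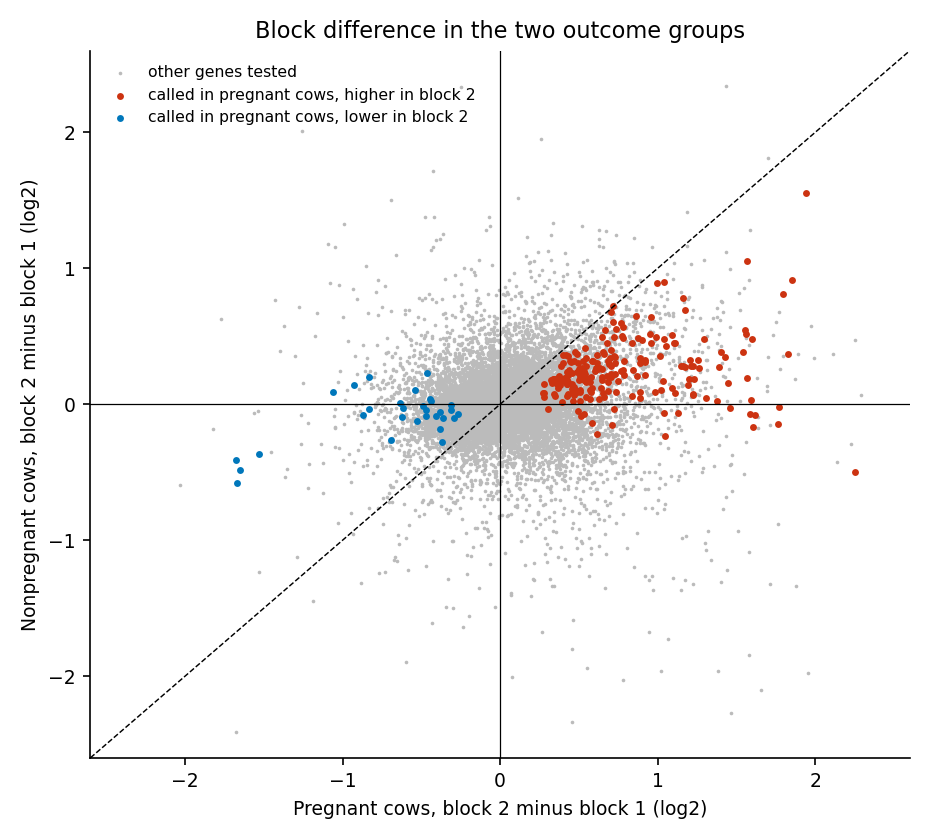
Log2 fold change of block 2 against block 1 in 18 nonpregnant cows (vertical) against that in 25 pregnant cows (horizontal), 1 point per gene, with the line of equality dashed. Genes called in pregnant cows are red (higher) or blue (lower), and 11 genes, 4 of them called, fall outside the axes. Most red points lie above 0 on the vertical axis but below the dashed line.

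No gene passed the threshold for block in the nonpregnant cows. The count was 0 with edgeR (0%), DESeq2 and limma voom, and 245, 301 and 576 genes had an unadjusted p under 0.05 (1.61% of tested genes for edgeR). Of the 217 genes, 15 had such a p (6.91%), each with the sign seen in pregnant cows, and of the 31 genes 1 did. Standard errors were larger in this smaller group, at a median of 1.27 times those of the pregnant cows over all genes. Over the 248 genes the ratio was 1.56, but choosing genes by low p in pregnant cows favours small SEs there. The median pregnant SE was 0.145 for the 248 and 0.172 for all genes, and the median nonpregnant SE 0.226 and 0.218. A call in pregnant cows beside none in nonpregnant cows does not show that the rounds differed by outcome, and the difference itself was tested. The interaction of block and outcome passed for 0 genes with edgeR (0%), DESeq2 and limma voom over all 43 cows, with 505, 582 and 884 at an unadjusted p under 0.05 (3.32% for edgeR). The median half-width of the 95% interval of this difference was 0.56 on the log2 scale, and for 64.8% of genes the whole interval stayed inside a 2-fold change. Of the 217 genes, 53 (24.4%) had an unadjusted edgeR p under 0.05 for the interaction, and of the 31 genes 22 (71.0%) did. These genes were chosen for their difference in pregnant cows, so the 2 shares are no independent evidence. As no gene passed, nothing in the comparison can be called particular to pregnant cows.

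In nonpregnant cows ENSBTAG00000011689 had medians of 302 CPM in block 1 and 553 CPM in block 2, a log2 fold change of 0.45 (95% interval -0.13 to 1.02). ENSBTAG00000000658 had medians of 5.87 and 13.6 CPM and a log2 fold change of 0.52 (-0.45 to 1.48). ENSBTAG00000043250 had medians of 44.1 and 31.3 CPM and a log2 fold change of -0.58 (-1.40 to 0.25). All 3 lay on the side seen in pregnant cows, with intervals that include 0. The interaction, pregnant minus nonpregnant, was 0.51 (95% interval -0.09 to 1.11; edgeR unadjusted p = 0.0938) for ENSBTAG00000011689. It was 1.05 (0.04 to 2.05; edgeR unadjusted p = 0.0417) for ENSBTAG00000000658 and -1.09 (-2.04 to -0.14; edgeR unadjusted p = 0.0251) for ENSBTAG00000043250. ENSBTAG00000012970 had medians of 93.8 and 89.9 CPM and a log2 fold change of -0.10 (-0.35 to 0.15). Its pregnant estimate of -0.62 lay outside that interval. Its interaction was -0.53 (-0.84 to -0.21; edgeR unadjusted p = 0.00175). For all 4 genes the edgeR adjusted p of the interaction was 1.00 over all genes, and all 4 were picked for their difference in pregnant cows, so these interactions are no independent evidence.

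Seen by cow, the 217 genes had a median of -0.16 in nonpregnant cows of block 1 and 0.37 in those of block 2, on the scale relative to pregnant cows. The ranges were -0.62 to 0.77 and -0.52 to 0.76, so the blocks overlapped almost fully, with 6 of 8 cows of block 2 above the median of block 1. The 31 genes had medians of 0.25 and -0.04, and 1 of the 8 cows of block 2 lay above the median of block 1. The cleaner separation of the pregnant cows is not a result, since the genes were chosen on them.

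**Figure D4:**
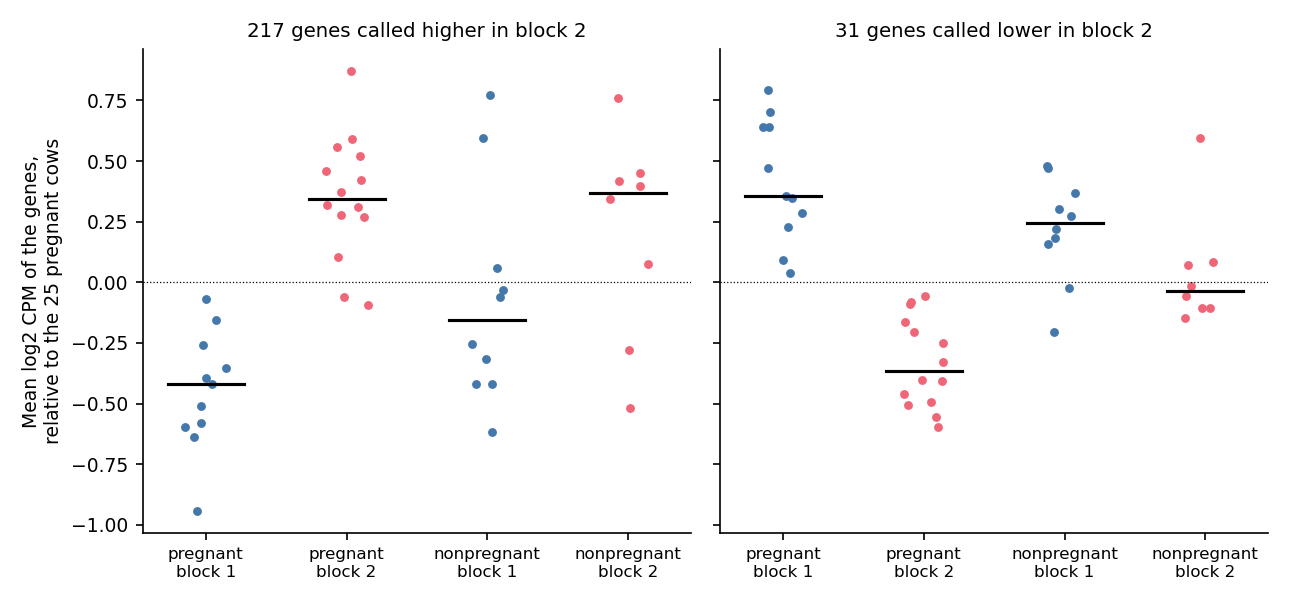
Mean log2 CPM of the 217 genes called higher (left) and the 31 called lower (right) in block 2, relative to the mean of the 25 pregnant cows, 1 point per cow with a line at the group median. Block 1 is blue and block 2 red. Pregnant cows separate by block because the genes were called on them. Nonpregnant cows, which were not in that test, have medians of -0.16 and 0.37 in the left panel with overlapping ranges.

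The count of called genes depended on single cows more than the folds did. Without 1 pregnant cow it ran from 123 (without block 1 cow 5) to 426 (without block 1 cow 9). In each of these 25 fits all 248 genes kept their sign, at a median of 0.944 to 1.04 of their size, though they were chosen on these same cows. With log2 progesterone in the model 232 genes passed, 221 of them among the 248. With the number of detected genes in the model 209 passed, 158 higher and 51 lower, and 159 were among the 248. With log2 total counts 181 passed, 169 higher and 12 lower. Of the 248 genes, 162 passed in that fit. Without the 4 libraries whose 10 most abundant genes took over 8% of counts, 1 in block 1 and 3 in block 2, 242 genes passed, of which 181 were among the 248. DESeq2 called 570 genes, 419 higher and 151 lower, which include all 248. Limma voom with sample weights called 930, 579 higher and 351 lower, which include 241 of the 248. Estimating the spread from all 43 cows left 103 genes, 87 higher and 16 lower.

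**Figure D5:**
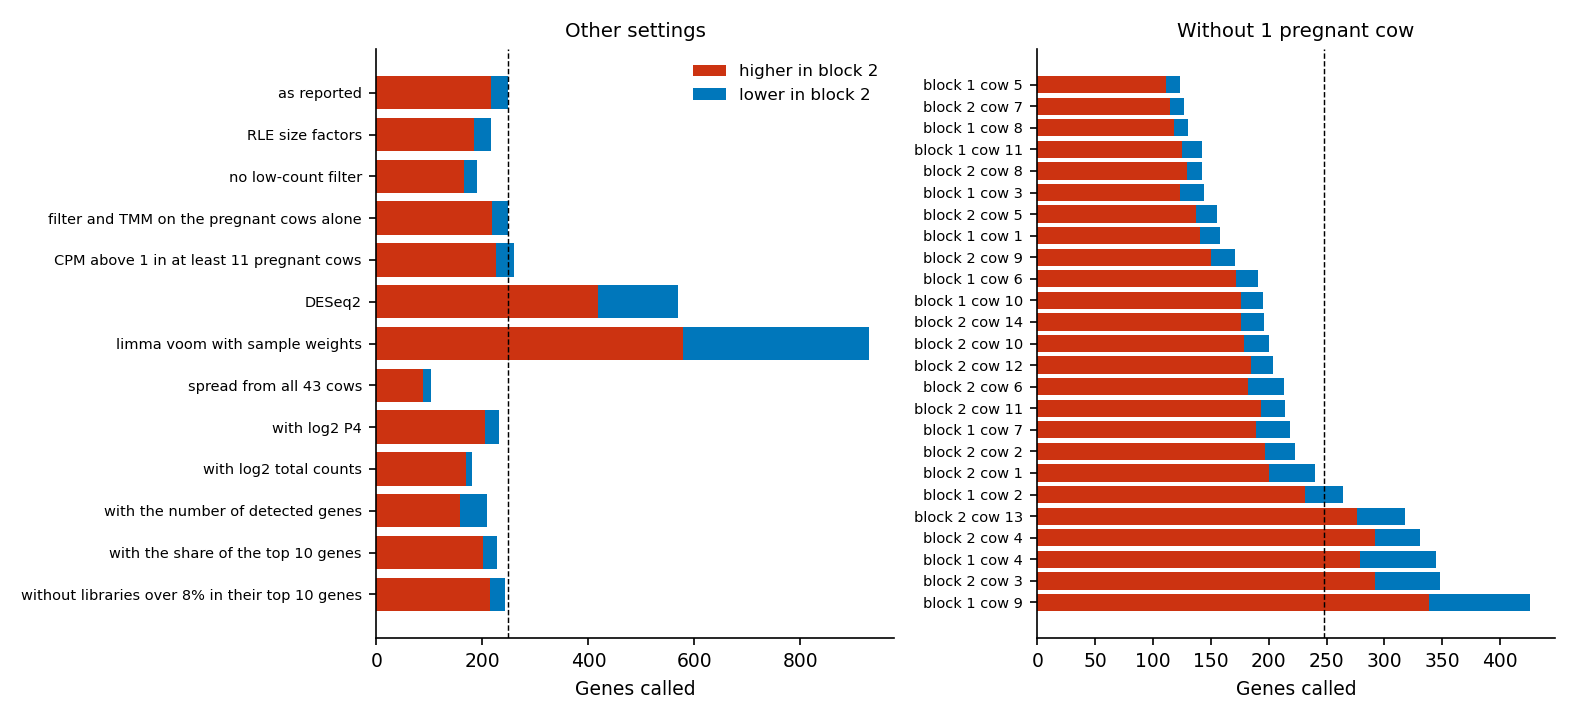
Number of genes called between blocks in pregnant cows under each setting (left) and without each pregnant cow in turn (right), with genes higher in block 2 in red and lower in blue, and a dashed line at the reported 248. Counts range from 103 to 930 over the settings and from 123 to 426 over the cows left out, and higher genes outnumber lower ones in every bar.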

How the data were processed

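Per the labels' protocols, poly-A libraries were sequenced on an Illumina NovaSeq. The authors deposited raw counts of reads per Ensembl gene for each cow. Build ARS-UCD1.2 and the tools HISAT2, HTSeq, Trim Galore 0.4.4 and FastQC 0.11.7 are listed, per the submitters' processing notes. The sources used here do not give the annotation release or the handling of strand and shared reads, so overlapping or near-identical genes may share reads.

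Genes were kept by edgeR's filterByExpr (minimum count 10, smallest group 18, all 43 cows), and TMM factors came from all libraries. Block was tested in the 25 pregnant cows with edgeR 4.0.16's robust quasi-likelihood F-test (R 4.3.3, Benjamini-Hochberg, threshold 0.05), separately in the 18 nonpregnant cows, and as an interaction over all 43. The SE is the absolute log2 fold change over the square root of F. Log2 CPM per cow used a prior count of 2. Permutation tests used 100000 resamples and 4 adjusted p-values. Alternatives used DESeq2 1.42.0, limma 3.58.1 voom, other filters, scalings and covariates. Every limma voom fit used sample weights, which let cows count unequally. The edgeR fits were run on simulated counts with known changes, drawn independently for each gene. That run set a limit on false calls only, with no requirement on the changes found, so it is no measure of power here. Each cow is 1 independent sample within its round, and the rounds themselves were not replicated.

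The rule for named genes took, in each direction, the 2 identifiers of smallest p with a mean log2 CPM of at least 0. The cows and lists were chosen with earlier results of these data known.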

Additional observations from a re-analysis of the deposited data

Results flagged for a closer look

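Of 24 sets of values from nonpregnant groups (10 cows or fewer) tested for a cow far from the others, 2 were flagged, where chance flags about 1 in 20. The groups of 11 and 14 pregnant cows were not tested. Nonpregnant block 2 cow 8 had a progesterone value of 1.88, in the unstated unit of the labels, and the next highest of its group was 0.80. Without that cow, 232 of the 248 genes had the same sign in nonpregnant as in pregnant cows, and over all tested genes the share was 67.3%, against 61.2% with the cow.

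Nonpregnant block 2 cow 6 had a mean log2 CPM of 0.59 for the 31 genes called lower in block 2, relative to the pregnant cows, and the next highest of its group was 0.08. Its value for the 217 higher genes was -0.52, the lowest of its group. Without that cow the 31 genes had a median log2 fold change of -0.13 in nonpregnant cows, with 25 of 31 on the lower side. The 217 genes had a median of 0.29, with 209 on the higher side, while the share of all tested genes with the same sign was 65.3%. As the cow was flagged on the values of these same genes, leaving it out was bound to move both sets toward the pregnant direction. The shift carries no further evidence.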

How the results depend on the processing

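The 248 genes called in pregnant cows became 570 with DESeq2, 930 with limma voom and 103 with the spread from all 43 cows. In the last, the fold changes were those of the pregnant cows and the SEs of the 248 genes a median of 1.18 times as large. The 248 were called with the spread of the pregnant cows, which favours small SEs there, so that ratio is partly set by the choice of genes. The cause of the change in count was not tested for any of these settings. The other 9 settings gave 181 to 259 genes, within 1.5 times. Leaving out 1 pregnant cow gave 123 to 426 genes, with 158, 144, 123, 130 and 142 without block 1 cows 1, 3, 5, 8 and 11, 426 without block 1 cow 9, and 155, 127 and 142 without block 2 cows 5, 7 and 8. The share of called genes with the same sign in nonpregnant cows was 84.0% for the genes DESeq2 called and 77.7% for those of limma voom, and ran from 80.8% to 93.7% without 1 pregnant cow. These shares, and the fits without 1 nonpregnant cow (0 genes called in each), were chosen after seeing the data. Progesterone by block was -0.0418 (block 2 minus block 1) on the linear scale, against 0.04 on the log2 scale, and neither passed. The interaction called 0 genes in each of 6 other settings. RLE factors moved the median of all genes by -0.01. Intervals were wider at low abundance, with a median half-width of 0.68 on the log2 scale in the lowest of 4 abundance bins and 0.25 in the highest. No paired analysis was possible because there was a single library per cow and the numbers only name animals.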
